A study of Mus musculus with 12 samples.

Results

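The enzymes of glycolysis and the genes induced by hypoxia are described here as 1 list of 35 genes in a nerve sheath tumour and in normal nerve of the mouse. The list holds the enzymes, their glucose and lactate transporters, the regulators of their flux, the HIF factors, their oxygen sensors and 8 genes induced by hypoxia. The genes were taken by symbol, all 35 were among the 47480 symbols of the deposited count table, and 34 of them passed the filter on low counts that left 17236 genes for testing.

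Glycolysis turns glucose into pyruvate in the cytosol through a fixed chain of enzymes, and lactate dehydrogenase turns pyruvate into lactate when that path is used without mitochondria. When oxygen is short, prolyl hydroxylases no longer mark the HIF alpha subunits for destruction, and HIF then induces most glycolytic genes together with a set of stress genes. Schwann cells run glycolysis and pass lactate to the axons they wrap, so peripheral nerve uses the chain in both glia and neurons.

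RNA was sequenced from trigeminal nerve of 12 mouse samples. In 6 of them the genotype was Nf1 flox/flox PostnCre+ and the tissue was labelled plexiform neurofibroma, a benign nerve sheath tumour, and in the other 6 it was Nf1 flox/flox PostnCre- and normal nerve. Every mouse carried floxed Nf1, the gene for neurofibromin, a brake on RAS, and the groups differed by a Cre recombinase named for Postn, the periostin gene, so genotype and tumour state coincide. The labels used here do not say in which cells this Cre is active. They give no age, sex, treatment or clone, and no statement that each library came from its own animal, so p-values measure the spread between these samples.

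Libraries held 14160025 to 19989351 counts. Levels are given in CPM, counts per 1000000 with library sizes scaled by the trimmed mean of M-values (TMM). The targeted gene Nf1, which checks the labels, had a lowest, median and highest level of 69.6, 86.6 and 93.1 CPM in plexiform neurofibroma, against 85.5, 141 and 173 CPM in normal nerve. Normal nerve replicates 2 and 6, at 85.5 and 90.6 CPM, lay within the tumour range, and the other 4 normal libraries lay at 133 to 173 CPM. Its log2 fold change was -0.65 (edgeR adjusted p = 0.0179), and its count covers the whole gene and not the floxed part alone. All 13 sensory neuron markers had counts in every library of either group, and their summed level was 13152 to 16895 CPM in plexiform neurofibroma and 11368 to 20616 CPM in normal nerve. Schwann cell markers had sums of 6302 to 11311 CPM in plexiform neurofibroma and 2487 to 6203 CPM in normal nerve, with 4 of 6 higher and none lower, and fibroblast markers had sums of 1069 to 2317 CPM in plexiform neurofibroma and 131 to 965 CPM in normal nerve, with 3 of 4 higher. Of all genes tested, 10.0% were higher and 8.63% lower by the same edgeR test. In bulk RNA, fewer cells of a type and less RNA per cell cannot be told apart. The library of plexiform neurofibroma replicate 1 stood apart by skeletal muscle markers (2227 CPM) and fat markers (519.7 CPM), normal nerve replicate 3 by muscle markers (589 CPM), and normal nerve replicate 6 by CNS markers (2250.0 CPM) and erythroid markers (4549.7 CPM).

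Most of the glycolysis and hypoxia list lay close to the level of normal nerve in plexiform neurofibroma. Of 34 members tested, Hk2 rose, Eno2 and Pgam1 fell, and 31 did not pass the test. That is 8.82% called, against 18.7% of all 17236 genes, by edgeR's quasi-likelihood test at a Benjamini-Hochberg adjusted p under 0.05 over all genes. DESeq2 called 4 members beside 24.7% of all genes, and limma-voom called 5 beside 32.3%. By direction, 1 of the 34 was higher, against 10.0% of all genes, and 2 were lower, against 8.63% of all genes. The median log2 fold change was -0.06 over the members and -0.02 over all genes tested, and 20 of 34 members (58.8%) lay below 0, against 52.5% of all genes. Because a call that is missed does not show that levels were alike, the 95% interval of each fold change was read as well. For 26 of 34 members, or 76.5%, it lay within 1.5-fold in either direction, against 52.2% of all genes. That share also depends on the width of the intervals. The median SE was 0.096 log2 over the members and 0.137 over all genes tested, which were not matched to the members by level. The 8 members with a wider interval were Hk2, Aldoc, Slc16a3, Egln1, Egln3, Ndrg1, Ankrd37 and Ddit4. The 17 enzymes from hexokinase to lactate dehydrogenase had sums of 6395 to 7425 CPM in plexiform neurofibroma and 6333 to 7528 CPM in normal nerve, with a median of 6723 CPM in plexiform neurofibroma and 7262 CPM in normal nerve.

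**Figure D1:**
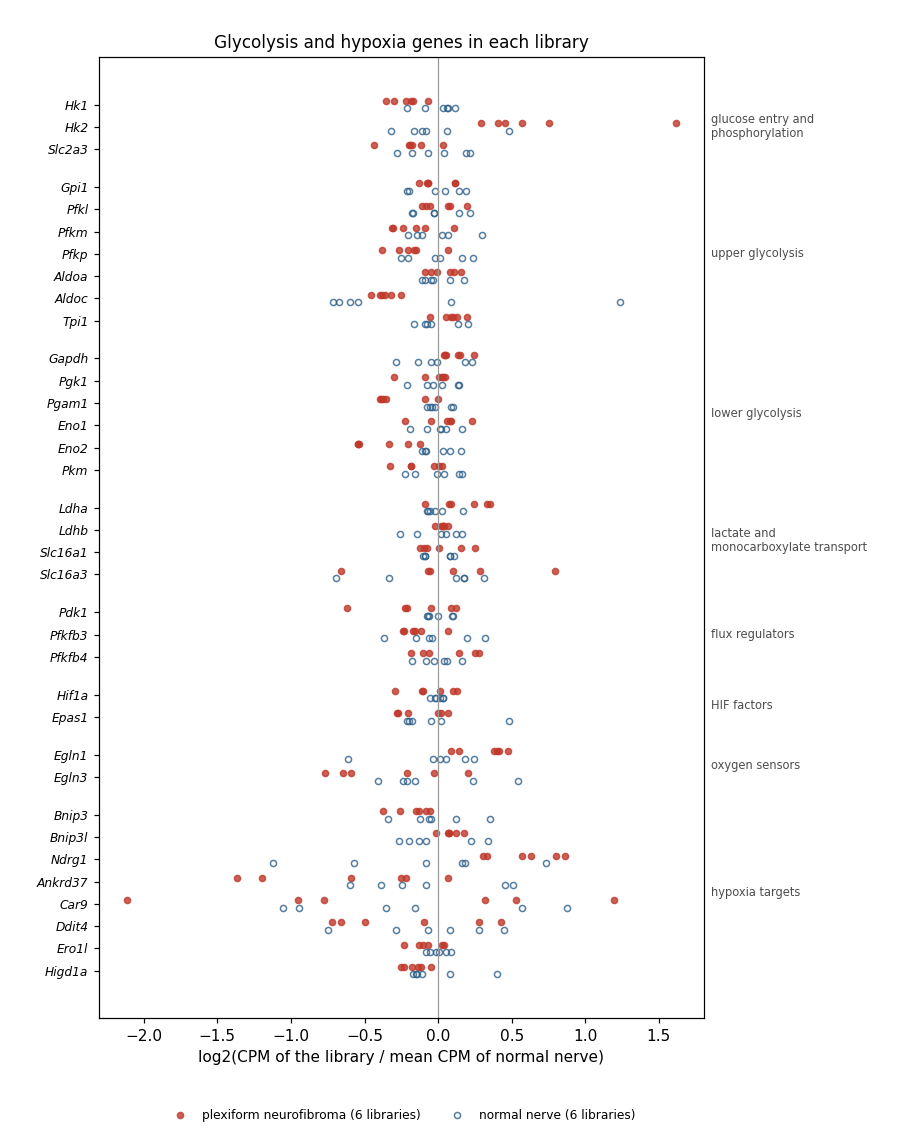
Level of each of the 35 genes in each library, as log2 of the library's CPM over the mean CPM of normal nerve, by role, with filled points for the 6 plexiform neurofibroma libraries and open points for the 6 normal nerve libraries. Most rows show both groups around 0, the filled points of Hk2 lie to the right and those of Eno2 to the left, and single normal nerve points of Aldoc and Ndrg1 lie far from the rest.

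**Figure D2:**
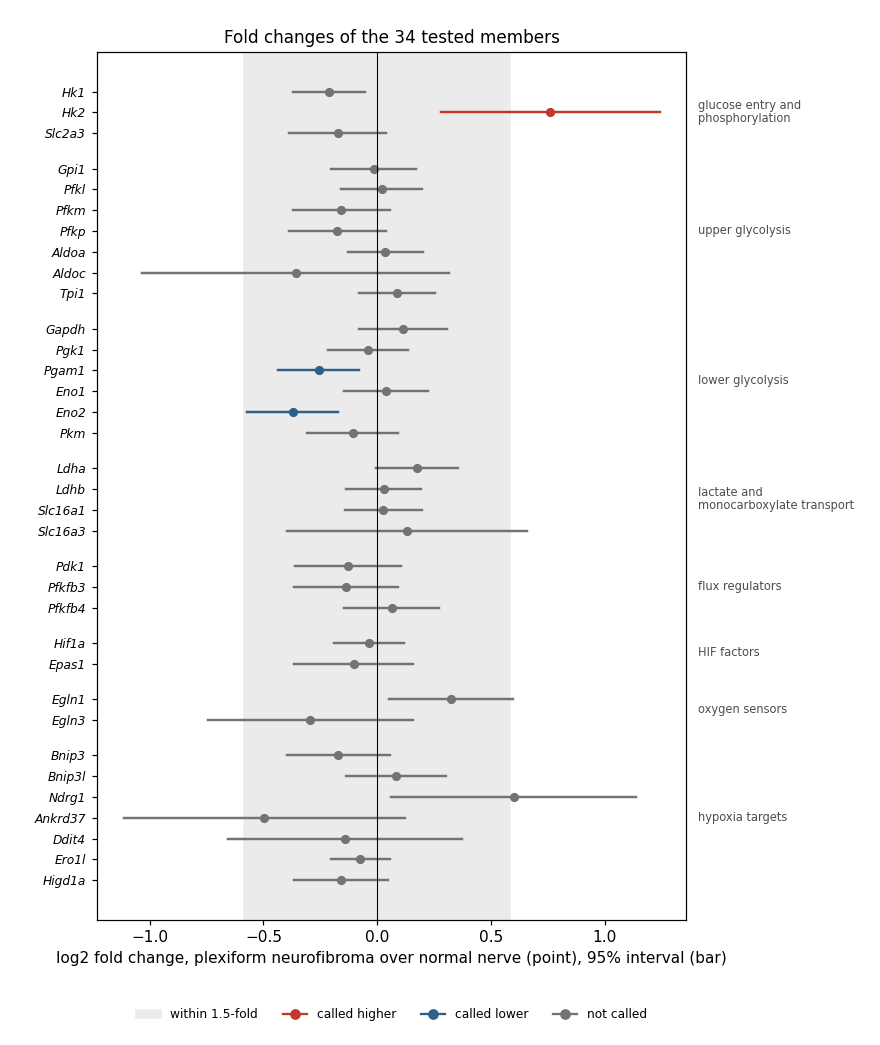
Fold change of each of the 34 tested genes, plexiform neurofibroma over normal nerve on the log2 scale (point) with its 95% interval (bar), by role, over a band that marks 1.5-fold either way. Hk2 (called higher) is the only called gene whose bar leaves the band, and the bars of Eno2 and Pgam1 (called lower) lie below 0 within it.

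Glucose entry and its first phosphorylation held the gene that rose. Hk2 (chromosome 6, 82725025 to 82774454, GRCm38) encodes hexokinase 2, the inducible isoform that sits on mitochondria and is abundant in muscle and many tumours. Its lowest, median and highest levels were 9.64, 11.2 and 24.1 CPM in plexiform neurofibroma, against 6.31, 7.37 and 11 CPM in normal nerve. The 6 tumour libraries overlapped the normal ones, since normal nerve replicate 5 was at 11 CPM, above 3 of them. Hk2 rose 1.69-fold (95% interval 1.21 to 2.36, SE 0.22 log2, edgeR adjusted p = 0.0318). Its highest value, 24.1 CPM, was that of plexiform neurofibroma replicate 1, the library with muscle and fat transcripts, and without that library the log2 fold change was 0.51 (edgeR adjusted p = 0.0384), against 0.76 with it. The 14 muscle markers summed to 53.0 to 2227 CPM in plexiform neurofibroma and 58.3 to 589 CPM in normal nerve. Among them Pvalb had 32.5 to 167 CPM in plexiform neurofibroma and 37.2 to 66.0 CPM in normal nerve. In plexiform neurofibroma replicate 2 it made up 42.0 of the 67.0 CPM, so low sums do not show muscle RNA. The muscle score below includes Pvalb. None of the 10 that passed the filter was called, beside 18.7% of all genes tested, and Ckm ranged from 0 to 202 CPM. The 5 fat markers summed to 0.129 to 519.7 CPM in plexiform neurofibroma and 0.143 to 5.47 CPM in normal nerve, with Adipoq, Cidec, Lep and Fabp4 at 0 in some library. With the muscle marker score as a covariate the log2 fold change of Hk2 was 0.67 (edgeR adjusted p = 0.0258), and without all 3 libraries that stood apart it was 0.42 (edgeR adjusted p = 0.0702). Leaving out normal nerve replicate 1, 2, 3 or 4 also ended the call, at 0.73 to 0.78 log2 (edgeR adjusted p up to 0.0656), as did limma-voom at 0.65 log2 (adjusted p = 0.0559).

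Hk1, the main hexokinase of neurons and of most tissues, stood at 204, 227 and 248 CPM in plexiform neurofibroma, against 225, 269 and 283 CPM in normal nerve (lowest, median and highest). Of the normal libraries 4 lay above every tumour library, and replicates 2 and 6 lay within the tumour range. Its fold of 0.862 (95% interval 0.773 to 0.962) missed the threshold (edgeR adjusted p = 0.0574), while DESeq2, which called 24.7% of all genes, and limma-voom, which called 32.3%, called it lower (adjusted p = 0.0193 and 0.00582). It also passed in edgeR without the 3 libraries that stood apart (-0.26 log2, adjusted p = 0.037). Further edgeR fits that called it lower used upper-quartile factors (adjusted p = 0.0477) or the sensory neuron score as a covariate (adjusted p = 0.04755). So did those without plexiform neurofibroma replicate 5 (adjusted p = 0.0443) or normal nerve replicate 6 (adjusted p = 0.0132). The other edgeR fits did not call it. Within each library the log2 ratio of Hk2 to Hk1 averaged -4.14 ± 0.44 in plexiform neurofibroma and -5.05 ± 0.22 in normal nerve (SD, n = 6 each), and the groups did not overlap. That difference of 0.91 log2 had the smallest p that 6 libraries against 6 can give (two-sided exact permutation p = 0.00216, adjusted p = 0.0173 over 8 ratios). Without the 3 libraries that stood apart the difference was 0.68 (exact permutation adjusted p = 0.0635), and the remaining libraries of the groups did not overlap. Fewer libraries leave fewer splits, so the smallest p that the test can give was larger there. Between group medians the difference was 0.85 (exact permutation adjusted p = 0.05195). Per kilobase of transcript Hk1 remained far more abundant, at 60.0 CPM per kb in plexiform neurofibroma and 69.6 CPM per kb in normal nerve, against 3.21 CPM per kb in plexiform neurofibroma and 1.90 CPM per kb in normal nerve for Hk2. The neuronal glucose transporter Slc2a3 (GLUT3) averaged 64.0 ± 6.55 CPM in plexiform neurofibroma and 72.2 ± 9.92 CPM in normal nerve (SD, n = 6 each) and was not called (log2 fold change -0.17, SE 0.10, edgeR adjusted p = 0.223).

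The promoters of the 3 called genes and of 3 textbook HIF targets are shown because many genes of the list are known targets of HIF, whose motif can be looked for in them. Each line gives the 250 bases before an annotated start site (RefSeq, GRCm38.p6, 5′ to 3′ on the gene's strand). Capitals mark the core of the HIF binding motif, ACGTG or GCGTG, or its reverse complement, CACGT or CACGC. A palindromic CACGTG matches on both strands and was counted once for each.
Hk2, chr6:82774455-82774704, minus strand: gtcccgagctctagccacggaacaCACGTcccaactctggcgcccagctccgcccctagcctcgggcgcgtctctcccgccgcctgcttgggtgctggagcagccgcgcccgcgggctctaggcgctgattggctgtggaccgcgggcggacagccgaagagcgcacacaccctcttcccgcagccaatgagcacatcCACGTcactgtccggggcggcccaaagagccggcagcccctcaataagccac
Pgam1, chr19:41911621-41911870, plus strand: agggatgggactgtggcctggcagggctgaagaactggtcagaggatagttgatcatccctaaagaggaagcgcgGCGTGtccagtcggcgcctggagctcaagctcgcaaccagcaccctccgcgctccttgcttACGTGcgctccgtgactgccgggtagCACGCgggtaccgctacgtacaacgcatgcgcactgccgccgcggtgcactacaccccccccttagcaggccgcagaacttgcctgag
Eno2, chr6:124769674-124769923, minus strand: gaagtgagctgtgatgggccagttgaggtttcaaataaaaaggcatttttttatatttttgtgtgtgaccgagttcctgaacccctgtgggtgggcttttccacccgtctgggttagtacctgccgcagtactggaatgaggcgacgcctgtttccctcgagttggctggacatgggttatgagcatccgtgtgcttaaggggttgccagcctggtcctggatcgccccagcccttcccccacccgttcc
Bnip3, chr7:138909507-138909756, minus strand: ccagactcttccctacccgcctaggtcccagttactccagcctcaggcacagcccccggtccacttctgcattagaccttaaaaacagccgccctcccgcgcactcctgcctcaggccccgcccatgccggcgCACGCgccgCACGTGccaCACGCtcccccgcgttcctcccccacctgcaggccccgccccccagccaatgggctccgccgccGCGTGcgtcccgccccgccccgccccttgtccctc
Ankrd37, chr8:45999851-46000100, minus strand: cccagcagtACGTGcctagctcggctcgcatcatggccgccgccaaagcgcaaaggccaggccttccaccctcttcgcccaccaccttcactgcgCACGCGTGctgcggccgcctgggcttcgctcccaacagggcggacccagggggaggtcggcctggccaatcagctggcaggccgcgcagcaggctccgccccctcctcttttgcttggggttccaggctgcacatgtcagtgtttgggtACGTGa
Pgk1, chrX:106186850-106187099, plus strand: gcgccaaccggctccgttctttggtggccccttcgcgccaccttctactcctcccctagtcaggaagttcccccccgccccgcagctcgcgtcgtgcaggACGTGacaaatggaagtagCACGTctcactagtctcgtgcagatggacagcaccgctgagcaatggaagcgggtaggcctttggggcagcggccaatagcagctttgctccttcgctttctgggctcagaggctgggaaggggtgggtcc
The Hk2 window held 2 matches, that of Pgam1 held 3, and that of Eno2 held none. The bases just after the Pgam1 start site were not found in a GENCODE transcript of the gene, unlike those of the other windows shown. The place of the Pgam1 window is therefore less certain. The windows of Bnip3, Ankrd37 and Pgk1, none of them called, held 5, 4 and 2. RefSeq promoters were matched for 31 of the 35 genes, with 44 windows in all. The motif was in 36 of the 44 windows, or 81.8%, and in 38.6% of the 32851 windows of all genes. Every match holds a CG, and the median window held 14 CG dinucleotides among the members and 6 among all genes. A match is a description of the letters and no measure of binding, and genes with and without one were both among the called and the uncalled.

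Upper glycolysis, from glucose 6-phosphate to the trioses, held no called gene among 7, beside 18.7% of all genes tested. At that share a set this small can hold none. Gpi1, the isomerase that makes fructose 6-phosphate, had 405, 422 and 479.9 CPM in plexiform neurofibroma, against 382, 448 and 506 CPM in normal nerve (lowest, median and highest). Its fold was 0.989 with a 95% interval of 0.869 to 1.13 (edgeR adjusted p = 0.909), and the ranges overlapped. The 3 phosphofructokinase subunits catalyse the committed step and mix in tetramers. Pfkp, the platelet-type subunit, averaged 281 ± 29.8 CPM in plexiform neurofibroma and 318 ± 42.5 CPM in normal nerve, Pfkm, the muscle-type subunit, 187 ± 21.4 CPM in plexiform neurofibroma and 208 ± 27.6 CPM in normal nerve, and Pfkl, the liver-type subunit, 67.5 ± 5.53 CPM in plexiform neurofibroma and 66.6 ± 7.46 CPM in normal nerve (SD, n = 6 each). Their folds were 0.885, 0.897 and 1.01 (edgeR adjusted p = 0.223, 0.271 and 0.884). The log2 ratio of Pfkp to Pfkm differed by -0.02 between the groups (two-sided exact permutation p and adjusted p = 0.898), and its sign changed when any 1 of 5 libraries was left out.

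Aldoa, the aldolase of muscle and most other tissues, was the most abundant member per kilobase in both groups. It had 1194, 1307 and 1415 CPM in plexiform neurofibroma, against 1182, 1237 and 1439 CPM in normal nerve (lowest, median and highest), with a fold of 1.03 (95% interval 0.914 to 1.15, edgeR adjusted p = 0.771). Its annotation overlaps that of Fam57b on the other strand, and whether counting used strand is not given in the sources used here, so reads of such pairs may be shared. Aldoc, the aldolase of astrocytes and Purkinje cells in brain, had 139, 148 and 160.0 CPM in plexiform neurofibroma, against 116, 129 and 450.3 CPM in normal nerve. The tumour libraries were tightly grouped, and normal nerve replicate 6 alone reached 450.3 CPM. In the same library the CNS markers summed to 2250.0 CPM, with the astrocyte glutamate transporter Slc1a2 at 746 CPM, against at most 77.3 CPM in any tumour library. None of the 6 CNS markers was called, beside 18.7% of all genes tested. Their sums were 75.6 to 819 CPM in plexiform neurofibroma and 77.7 to 2250.0 CPM in normal nerve. The log2 fold change of Aldoc was -0.36 with that library (edgeR adjusted p = 0.431) and 0.10 without it (edgeR adjusted p = 0.596). The log2 ratio of Aldoc to Aldoa differed by -0.20 (two-sided exact permutation p = 0.836, adjusted p = 0.898). Tpi1, which interconverts the trioses, averaged 378 ± 21.6 CPM in plexiform neurofibroma and 356 ± 36.4 CPM in normal nerve (SD, n = 6 each, edgeR adjusted p = 0.443).

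Lower glycolysis, the part of the chain that yields ATP, held both genes that fell. Eno2 (chromosome 6, 124760053 to 124769673) encodes enolase 2, the enolase of neurons and neuroendocrine cells, also called neuron-specific enolase. Its lowest, median and highest levels were 376, 407 and 505 CPM in plexiform neurofibroma, against 508, 539.9 and 611 CPM in normal nerve. The groups did not overlap, as was so for 7.39% of all genes tested. Eno2 fell to 0.773 of the level of normal nerve (95% interval 0.673 to 0.888, SE 0.09 log2, edgeR adjusted p = 0.0167). The call held whichever library was left out, with log2 fold changes from -0.43 to -0.34 and a highest edgeR adjusted p of 0.045, and with the sensory neuron score as a covariate (-0.34 log2, edgeR adjusted p = 0.00944). Of the 13 sensory neuron markers, 10 had a log2 fold change below 0 and 3 above it. The values ran from -0.47 for Snap25 and -0.42 for Uchl1 (edgeR adjusted p = 0.0688) to 0.28 for the neuropeptide gene Calca and 0.31 for Tac1, another (edgeR adjusted p = 0.265 and 0.218). Of the 13, 1 was called lower and none higher, beside 8.63% lower and 10.0% higher over all genes tested. That marker was the synaptic gene Snap25, with 876, 965 and 1050.2 CPM in plexiform neurofibroma, against 1052, 1314 and 1575 CPM in normal nerve (log2 fold change -0.47, SE 0.10, edgeR adjusted p = 0.00986). The score used as a covariate averages all 13 markers, and the part of neuronal content in the Eno2 values was not tested.

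Eno1, the enolase of most cell types, catalyses the same step and was not called. It had 448, 551 and 616 CPM in plexiform neurofibroma, against 459, 530.2 and 587 CPM in normal nerve (lowest, median and highest), a fold of 1.03 (95% interval 0.904 to 1.17, edgeR adjusted p = 0.775). Reads of its near-identical copy Eno1b, at 29.1 CPM in plexiform neurofibroma and 20 CPM in normal nerve on average, may be split with it. The log2 ratio of Eno2 to Eno1 averaged -0.35 ± 0.17 in plexiform neurofibroma and 0.07 ± 0.15 in normal nerve (SD, n = 6 each). The ratio was thus lower by 0.41 log2 in the tumours, with 5 of 6 tumour libraries below every normal library (two-sided exact permutation p = 0.00433, adjusted p = 0.0173 over 8 ratios). Without the 3 libraries that stood apart the difference was -0.48 (exact permutation adjusted p = 0.0635), and the remaining libraries of the groups did not overlap. With fewer splits, the smallest p that the test can give was larger there as well. Between group medians the difference was -0.41 (exact permutation adjusted p = 0.05195). Normal nerve replicate 6 was the lowest of its group for this ratio, at -0.21. It also had the lowest sum of sensory neuron markers of all libraries, 11368 CPM, and the part of neuronal content in the ratio was not tested.

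Pgam1 (chromosome 19, 41911923 to 41918660) encodes the phosphoglycerate mutase of brain and most tissues. It had 253, 259 and 333 CPM in plexiform neurofibroma, against 316, 326 and 356 CPM in normal nerve (lowest, median and highest). In 5 tumour libraries it lay below every normal library, and in tumour replicate 3, at 333 CPM, it lay within the normal range. Pgam1 fell to 0.836 of the level of normal nerve (95% interval 0.738 to 0.947, SE 0.08 log2, edgeR adjusted p = 0.0468), close to the threshold. With a log2 fold change of -0.26 in the fit of all libraries, it missed the threshold when low counts were kept (-0.25 log2, edgeR adjusted p = 0.108) and without the 3 libraries that stood apart (-0.23 log2, edgeR adjusted p = 0.113). It also missed when 1 library was left out, be it plexiform neurofibroma replicate 1, 2, 4 or 6 or any of normal nerve replicates 1 to 5 (-0.27 to -0.23 log2, edgeR adjusted p up to 0.108). Tumour replicates 3 and 5, the highest for Pgam1, were also the highest of their group for Eno2 and for the summed sensory neuron markers (16346 and 16895 CPM). With the sensory neuron score as a covariate the log2 fold change of Pgam1 was -0.25 (edgeR adjusted p = 0.0413). That score averages markers that moved in both directions, and the part of neuronal content in the Pgam1 values was not tested. A pseudogene, Pgam1-ps2, averaged 5.49 ± 1.44 CPM in plexiform neurofibroma and 11 ± 5.96 CPM in normal nerve, and reads may be split with it.

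The remaining steps of lower glycolysis were not called. Gapdh, often used as a reference transcript, had 502, 522 and 580.1 CPM in plexiform neurofibroma, against 401, 480.0 and 575 CPM in normal nerve (lowest, median and highest). Its fold was 1.08 (95% interval 0.945 to 1.24, edgeR adjusted p = 0.391), and all 6 tumour libraries lay above the median of normal nerve. Pgk1, the X-linked phosphoglycerate kinase and a standard HIF target, had a fold of 0.972 (95% interval 0.860 to 1.1, edgeR adjusted p = 0.755). Pkm, pyruvate kinase, ranked next to Aldoa per kilobase, with 826, 966 and 1059 CPM in plexiform neurofibroma, against 889, 1050.3 and 1162 CPM in normal nerve and a fold of 0.928 (95% interval 0.808 to 1.06, edgeR adjusted p = 0.422). The count covers the whole gene, so its M1 and M2 splice forms were not told apart.

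Lactate metabolism and transport held no called gene among 4, beside 18.7% of all genes tested. Ldha, the lactate dehydrogenase subunit induced by HIF, had 218, 260.3 and 296 CPM in plexiform neurofibroma, against 220.2, 226 and 261 CPM in normal nerve (lowest, median and highest). Values of the groups overlapped, the fold was 1.13 (95% interval 0.996 to 1.28), and the test was missed (edgeR adjusted p = 0.154). Ldhb, the subunit of oxidative tissues, averaged 460.0 ± 9.37 CPM in plexiform neurofibroma and 451 ± 49.1 CPM in normal nerve (SD, n = 6 each), a fold of 1.02 (95% interval 0.910 to 1.14, edgeR adjusted p = 0.821). Their log2 ratio, Ldha to Ldhb, differed by 0.13 (two-sided exact permutation p = 0.206, adjusted p = 0.411). Slc16a1 (MCT1), the lactate transporter that Schwann cells use, averaged 81.0 ± 8.75 CPM in plexiform neurofibroma and 79.5 ± 5.62 CPM in normal nerve (SD, n = 6 each, edgeR adjusted p = 0.837). Slc16a3 (MCT4), the exporter of glycolytic and hypoxic cells, was scarce, at 2.46 ± 0.825 CPM in plexiform neurofibroma and 2.25 ± 0.538 CPM in normal nerve, and its interval of 0.760 to 1.58-fold was wider than that of Slc16a1 (edgeR adjusted p = 0.736). Their log2 ratio, Slc16a3 to Slc16a1, differed by 0.08 (two-sided exact permutation p = 0.738, adjusted p = 0.898).

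None of the 3 regulators of flux was called, beside 18.7% of all genes tested. Pdk1, a kinase that keeps pyruvate from being oxidised in mitochondria under hypoxia, had 26.8, 37.7 and 44.7 CPM in plexiform neurofibroma, against 39.1, 40.3 and 44.2 CPM in normal nerve (lowest, median and highest; edgeR adjusted p = 0.415). Plexiform neurofibroma replicate 2 was lowest at 26.8 CPM, and the other tumour values lay around those of normal nerve. Pfkfb3 and Pfkfb4 make fructose 2,6-bisphosphate, the activator of phosphofructokinase, and both are HIF targets. Their folds were 0.908 and 1.05 (95% intervals 0.776 to 1.06 and 0.904 to 1.21, edgeR adjusted p = 0.368 and 0.671). All 3 intervals lay within 1.5-fold, as did those of 52.2% of all genes tested.

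Neither HIF alpha gene was called, and both intervals lay within 1.5-fold. Over all genes tested, 18.7% were called and 52.2% had such an interval. Hif1a encodes the broadly expressed subunit, which is controlled mainly as protein, so its RNA says little of its activity. It had 81.7, 97.0 and 109 CPM in plexiform neurofibroma, against 96.3, 100.2 and 102 CPM in normal nerve (lowest, median and highest), a fold of 0.974 (95% interval 0.876 to 1.08, edgeR adjusted p = 0.738). The normal libraries lay within a few CPM of each other, inside the wider tumour range. Epas1 encodes HIF-2 alpha, a subunit rich in endothelium, and had 118, 134 and 150.1 CPM in plexiform neurofibroma, against 124, 133 and 201 CPM in normal nerve. Its highest value, 201 CPM in normal nerve replicate 6, came with the highest endothelial marker sum, 129.9 CPM, and the part of those markers in it was not tested. The fold of Epas1 was 0.930 (95% interval 0.777 to 1.11, edgeR adjusted p = 0.564), and its log2 ratio to Hif1a differed by -0.05 (two-sided exact permutation p = 0.751, adjusted p = 0.898).

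Neither oxygen sensor was called, beside 18.7% of all genes tested, and both intervals reached past 1.5-fold. Egln1 (PHD2), the main HIF prolyl hydroxylase, had 64.2, 79.3 and 84.2 CPM in plexiform neurofibroma, against 39.6, 61.9 and 71.4 CPM in normal nerve (lowest, median and highest). Of the tumour libraries 4 lay above every normal one, the lowest value of all was 39.6 CPM in normal nerve replicate 2, and the fold was 1.25 (95% interval 1.04 to 1.51, edgeR adjusted p = 0.0859). Limma-voom called it higher (adjusted p = 0.0402). Egln3 (PHD3), the sensor most strongly induced by HIF, was scarce, at 3.55, 4.63 and 6.97 CPM in plexiform neurofibroma, against 4.57, 5.33 and 8.83 CPM in normal nerve, with a fold of 0.816 (95% interval 0.597 to 1.12, edgeR adjusted p = 0.334). The log2 ratio of Egln3 to Egln1 averaged -3.94 ± 0.47 in plexiform neurofibroma and -3.31 ± 0.45 in normal nerve (SD, n = 6 each), and 3 of 6 tumour libraries lay below every normal library. Its difference of -0.64 missed the threshold after adjustment (two-sided exact permutation p = 0.0433, adjusted p = 0.115 over 8 ratios).

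**Figure D3:**
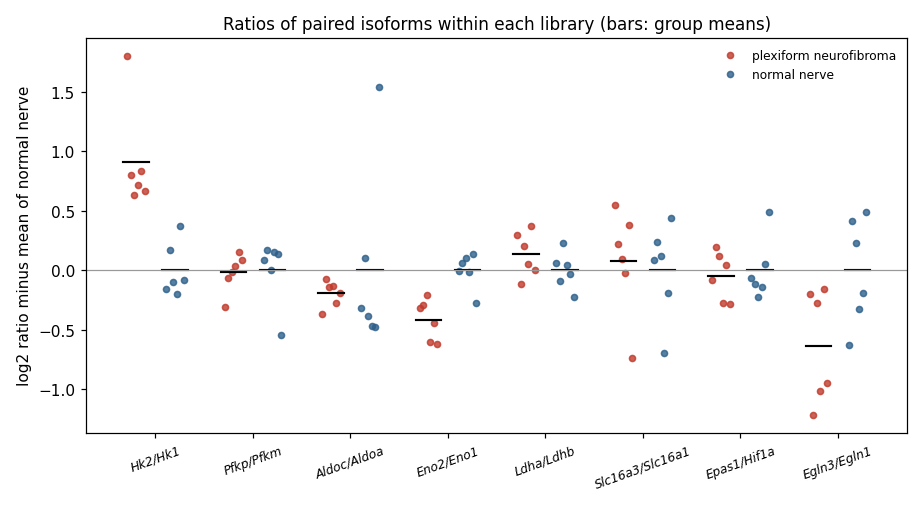
Log2 ratio of paired isoforms within each library, less the mean of normal nerve, for 8 pairs, with plexiform neurofibroma left of normal nerve in each pair and bars for group means. The Hk2/Hk1 points of the 6 tumour libraries lie above all normal points, and 5 of the 6 tumour points of Eno2/Eno1 lie below all normal ones.

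Of the 8 genes induced by hypoxia, 7 were tested and none was called, and 5 of these 7 log2 fold changes lay below 0, with a median of -0.14. Over all genes tested, 18.7% were called and 52.5% lay below 0. Bnip3, a mitophagy receptor induced by HIF, had 128, 151 and 160.3 CPM in plexiform neurofibroma, against 132, 160.0 and 213 CPM in normal nerve (lowest, median and highest). Its fold was 0.888 (95% interval 0.760 to 1.04, edgeR adjusted p = 0.257), and the tumour libraries lay inside the normal range but for the lowest, replicate 2. Bnip3l, its relative, which also clears mitochondria from red cell precursors, averaged 174 ± 7.67 CPM in plexiform neurofibroma and 164 ± 28.8 CPM in normal nerve (SD, n = 6 each, edgeR adjusted p = 0.587). Its highest value, 208 CPM, fell in normal nerve replicate 6, the library with the most erythroid RNA, whose part was not tested.

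Ankrd37, a small ankyrin-repeat gene induced by HIF, was scarce, with 0.687, 1.33 and 1.86 CPM in plexiform neurofibroma, against 1.17, 1.59 and 2.52 CPM in normal nerve and a fold of 0.709 (95% interval 0.462 to 1.09, edgeR adjusted p = 0.233). It overlaps Ufsp2, a more abundant gene on the other strand. Car9, the cell-surface carbonic anhydrase used as a marker of hypoxic tumour, did not pass the filter, with 2 to 20 counts per library. Its summed counts were 51 over the 6 tumour libraries and 47 over the 6 normal ones, and an antisense gene, Gm12454, overlaps it. Ddit4 (REDD1), an mTORC1 inhibitor induced by hypoxia and by stress hormones, had 38.1, 51.7 and 84.7 CPM in plexiform neurofibroma, against 37.4, 63.2 and 85.7 CPM in normal nerve. Both groups were widely spread, and the 95% interval of the fold ran from 0.635 to 1.30 (edgeR adjusted p = 0.704). Ero1l, an oxidase of protein folding in the endoplasmic reticulum, and Higd1a, a mitochondrial protein induced by hypoxia, had folds of 0.950 and 0.896 (95% intervals 0.868 to 1.04 and 0.776 to 1.03, edgeR adjusted p = 0.399 and 0.253).

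Ndrg1 had the largest difference among the 7 tested genes induced by hypoxia. It is induced by HIF and, in nerve, is abundant in myelinating Schwann cells, and its loss causes a demyelinating neuropathy in humans. Its lowest, median and highest levels were 807, 992 and 1184 CPM in plexiform neurofibroma, against 299.8, 675 and 1086 CPM in normal nerve. The tumour libraries all lay above 5 of the 6 normal ones, and normal nerve replicate 1 lay among them at 1086 CPM. The fold of 1.52 (95% interval 1.04 to 2.20) missed the threshold (edgeR adjusted p = 0.106). Without normal nerve replicate 1 it was called at 0.80 log2 (edgeR adjusted p = 0.0253), and limma-voom called it with all libraries (adjusted p = 0.0459). Among normal libraries, replicate 1 also had the highest sum of Schwann cell markers, 6203 CPM. Replicate 2 was lowest for both, at 2487 CPM for the markers and 299.8 CPM for Ndrg1. In normal nerve replicates 3 to 6 the marker sums were close together, at 3943 to 4186 CPM, while Ndrg1 ran from 439 to 742 CPM. The part of Schwann cell content in the Ndrg1 values was not tested, and an antisense gene, Gm17035, lies within its span.

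**Figure D4:**
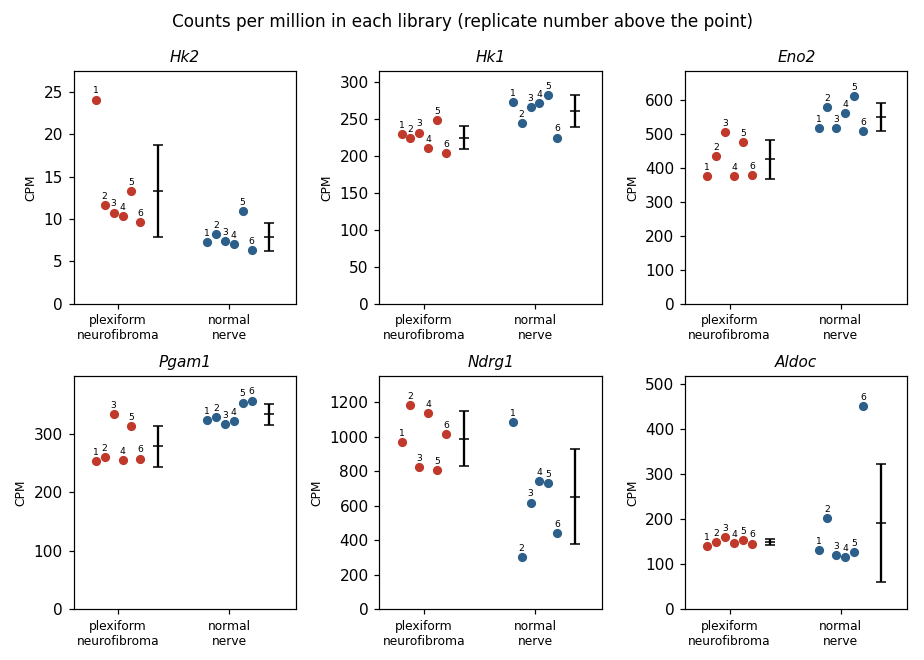
CPM in each library for 6 members, plexiform neurofibroma left of normal nerve, with the replicate number above each point and the mean ± SD (n = 6) beside it. Plexiform neurofibroma replicate 1 is highest for Hk2 at 24.1 CPM, normal nerve replicate 6 is highest for Aldoc at 450.3 CPM, and the Eno2 points of the groups do not overlap.

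The 4 most abundant members stood in the same order in both groups. Levels between genes were set per kilobase of the median length of the annotated protein-coding transcripts. Aldoa stood first at 878 CPM per kb in plexiform neurofibroma and 856 CPM per kb in normal nerve, followed in both groups by Pkm at 430.5 CPM per kb in plexiform neurofibroma and 464 CPM per kb in normal nerve, Gapdh at 416 CPM per kb in plexiform neurofibroma and 384 CPM per kb in normal nerve and Ldhb at 353 CPM per kb in plexiform neurofibroma and 346 CPM per kb in normal nerve. Ndrg1 ranked 5 in plexiform neurofibroma and 8 in normal nerve, Eno2 ranked 9 and 7, and Hk2 ranked 31 and 33 of 35. Car9 was last in both, and Slc16a3 was next to last.

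Spread within the groups was described by the coefficient of variation. Over the 34 tested members its median was 10.5% among tumour libraries and 12.4% among normal ones. Over all tested genes, which were not matched to the members by level, it was 13.4% among tumour libraries and 18.0% among normal ones. Within plexiform neurofibroma, replicate 5 held the highest value for 13 members and replicate 2 the lowest for 13. Within normal nerve, replicate 6 held the highest value for 16 members, and replicate 3 the lowest for 11.

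A wider list of 62 further genes of glucose metabolism and the HIF response was fitted in the same way. Of 58 tested, 5 were higher and 3 lower, or 13.8% against the 18.7% of all genes. The median log2 fold change was -0.03. Hmox1, haem oxygenase 1, induced by oxidative stress and by HIF, rose 1.98-fold, with 23.2, 29.9 and 36.1 CPM in plexiform neurofibroma, against 11.3, 13.8 and 23.2 CPM in normal nerve (lowest, median and highest; edgeR adjusted p = 0.00435). The lowest tumour value and the highest normal value were almost equal, and the groups did not overlap. Macrophage markers, from cells that express Hmox1, summed to 82.2 to 154 CPM in plexiform neurofibroma and 29.4 to 112 CPM in normal nerve, with Aif1 and Csf1r called higher and Cd163 lower among 6, and their part in the result was not tested. Over all genes tested, 10.0% were called higher and 8.63% lower. Adm, the vasodilator adrenomedullin, and Car12, a carbonic anhydrase related to Car9, rose 2.00-fold and 2.68-fold at low levels, with means of 1.87 and 2.25 CPM in plexiform neurofibroma and 0.936 and 0.835 CPM in normal nerve (edgeR adjusted p = 0.0187 and 0.0164).

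Among enzymes of that wider list, Fbp1, a gluconeogenic phosphatase, rose 1.84-fold at 2.82 ± 0.488 CPM in plexiform neurofibroma and 1.53 ± 0.435 CPM in normal nerve (SD, n = 6 each, edgeR adjusted p = 0.0152). Pgd, an oxidative enzyme of the pentose phosphate pathway, rose 1.17-fold at 65.2 ± 2.66 CPM in plexiform neurofibroma and 55.6 ± 3.85 CPM in normal nerve (edgeR adjusted p = 0.0196). Pfkfb2, which like Pfkfb3 sets fructose 2,6-bisphosphate, fell to 0.812 of normal nerve (edgeR adjusted p = 0.0148), and Narf, a nuclear protein that binds prelamin A, fell to 0.786 with groups that did not overlap (edgeR adjusted p = 0.0153). Vegfa, the angiogenic factor that HIF induces, fell to 0.822 of normal nerve (edgeR adjusted p = 0.0357). It missed the threshold when low counts were kept, without the 3 libraries that stood apart, or when 1 library was left out among plexiform neurofibroma replicates 2, 4 and 6 and normal nerve replicates 2 to 5 (-0.29 to -0.23 log2 over these fits, against -0.28 with all libraries; edgeR adjusted p up to 0.0853). The glucose transporter of most cells, Slc2a1 (GLUT1), had 54.7, 57.9 and 73.1 CPM in plexiform neurofibroma, against 53.5, 69.6 and 133 CPM in normal nerve (lowest, median and highest; edgeR adjusted p = 0.238), its highest value lying in normal nerve replicate 2. Without normal nerve replicate 6, 10 genes of the wider list were higher and 5 lower, or 25.9% called, beside 28.8% of all genes in that fit.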

How the data were processed

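Per the labels' protocols, RNA went into KAPA stranded mRNA libraries, and a TruSeq kit is named as well. The submitters' processing notes name FastQC, STAR 2.4.2a, Salmon 0.60, DESeq2 and build mm10, with no role or order. The authors deposited expected counts per gene symbol without normalization. In each library 84.1% to 86.5% of values were whole within 0.001, and all were rounded before testing. Such estimates can split reads of near-identical genes.

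Counts were filtered with filterByExpr and tested with edgeR 4.0.16 (quasi-likelihood, TMM, robust, no covariate) in R 4.3.3, with Benjamini-Hochberg adjustment over 17236 genes. Standard errors were taken from the log2 fold change and its F statistic. Isoform ratios used log2 CPM with a prior count of 2 and exact permutation tests. Alternatives were other scaling factors and filters, DESeq2 1.42.0, limma-voom 3.58.1 with sample weights, 2 marker scores as covariates, a transcript length correction (lowess, span 0.3) and each library left out. Leaving out 3 libraries together was chosen after seeing the data. Coordinates are from GENCODE vM21 (GRCm38, the assembly of mm10). The test was also tried on simulated counts with known folds in genes outside the list, not matched to the members by level. It called 0% of the genes changed 1.2-fold, 32.0% at 1.5-fold, 74.0% at 2-fold and 92.0% at 4-fold. Far fewer genes were changed there than the 3218 called in the data, so the adjusted threshold was stricter. These shares therefore do not carry over to the data, where Pgam1 was called at a fold of 0.836 and Pgd at 1.17.

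The members and lists were chosen with earlier results of these data known. All members are named; of the wider list, the called genes and Slc2a1 are.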

Additional observations from a re-analysis of the deposited data

Results flagged for a closer look

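In each group of 6 libraries, the gap between an extreme value and its neighbour was set against the group's range for the 35 members and 8 ratios. Chance flags about 1 in 20 groups, and 8 of 86 were flagged. Plexiform neurofibroma replicate 1 was far above its group for Hk2, at 24.1 CPM, and for the log2 ratio of Hk2 to Hk1, at -3.24; it is the library with muscle and fat transcripts. Plexiform neurofibroma replicate 5 was highest for Pfkfb3, at 51.0 CPM. Normal nerve replicate 6, the library with CNS and erythroid transcripts, accounted for the other 5. It was highest for Aldoc, at 450.3 CPM, for Epas1, at 200.6 CPM, and for the log2 ratio of Aldoc to Aldoa, at -1.39. It was lowest for the log2 ratios of Pfkp to Pfkm, at 0.058, and of Eno2 to Eno1, at -0.21. The part of other tissue in these values was not tested.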

How the results depend on the processing

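No paired analysis was possible because the labels do not link tumour samples to normal ones. They give no replicate numbers either, so replicates were numbered here in the order of the samples. Of the 3 called members, Eno2 was called in every fit run, and the fits that ended the calls of Hk2 and Pgam1 stand beside their values. Limma-voom called 5 members (Hk1, Pgam1 and Eno2 lower, Egln1 and Ndrg1 higher), 16 genes of the wider list (27.6%) and 5565 of all genes (32.3%). Leaving out 1 library gave 1 to 4 members, with 1 (Eno2) without normal nerve replicate 2, 3 or 4 (13.2% to 15.1% of all genes called in those fits). It gave 7 to 15 genes of the wider list, with 15 (25.9%, beside 28.8% of all genes) without normal nerve replicate 6, and 1893 (without plexiform neurofibroma replicate 4) to 5031 (without normal nerve replicate 6) of all genes. Without the 3 libraries with other tissue, the wider list had 13 (22.4%, beside 23.3% of all genes in that fit). The median of the group gave a log2 ratio difference of 0.85 for Hk2/Hk1 and -0.41 for Eno2/Eno1 (exact permutation adjusted p = 0.05195 for each). Without the 3 libraries the differences were 0.68 and -0.48 (exact permutation adjusted p = 0.0635 for each). That test had fewer splits than with all libraries, so the smallest p it can give was larger. The remaining sign changes were among values never called. Signs turned to 0.032 for Gpi1 and 0.13 for Aldoc (log2 fold changes) with limma-voom. With the length correction they turned to -0.062 for Aldoa, -0.0047 for Tpi1, -0.029 for Eno1, -0.088 for Ldhb and 0.016 for Hif1a. Without the 3 libraries they turned to -0.027 for Aldoa, 0.063 for Aldoc and -0.027 for Slc16a1. Among log2 ratios, the group median gave 0.18 for Aldoc/Aldoa and 0.072 for Epas1/Hif1a, and leaving out the 3 libraries gave 0.13 and 0.028. With 1 library left out, log2 fold changes ran from -0.052 to 0.033 for Gpi1, -0.017 to 0.067 for Pfkl, -0.46 to 0.097 for Aldoc, -0.081 to 0.0062 for Pgk1, -0.0031 to 0.092 for Eno1, -0.014 to 0.063 for Ldhb, -0.018 to 0.055 for Slc16a1, -0.045 to 0.25 for Slc16a3, -0.067 to 0.0087 for Hif1a and -0.14 to 0.015 for Epas1. In the same fits log2 ratios ran from -0.13 to 0.042 for Pfkp/Pfkm, -0.29 to 0.11 for Aldoc/Aldoa, -0.0597 to 0.24 for Slc16a3/Slc16a1 and -0.095 to 0.052 for Epas1/Hif1a. The cause was not tested. Car9, with 2 to 20 counts per library, did not pass the filter at this depth.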
